A study of Mus musculus with 4 samples.

Results

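The CC chemokines Ccl2, Ccl3, Ccl4, Ccl5, Ccl6, Ccl7, Ccl8, Ccl9, Ccl11 and Ccl12 were followed across the cells of the mouse aorta. They were looked up by symbol, and all 10 were among the 32285 features of each of 4 single-cell RNA matrices. The question was which aortic cells carried these transcripts, and how their levels lay between a myeloid knockout and its control on each diet. Macrophages held the largest share of the transcripts, with 46.1% of the UMIs (unique molecular identifiers, 1 per captured RNA molecule) of the 10 genes in WT mice on normal diet and 70.8% in LysM-DKO/ApoE-/- mice on western diet. Fibroblasts were the main site of Ccl11. Except in WT/ApoE-/- mice, they also held more Ccl2 UMIs than macrophages. They held more Ccl7 UMIs than macrophages in WT mice on normal diet and in LysM-DKO/ApoE-/- mice. T cells were the main site of Ccl5 on normal diet, and Ccl9 in the wall classes was highest in WT/ApoE-/- mice.

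The 4 groups, each of 1 library, were WT and LysM-DKO mice fed normal diet, then WT/ApoE-/- and LysM-DKO/ApoE-/- mice fed western diet, and values are given in this order. Both western groups lacked ApoE, so the WT control of that diet is itself an ApoE null. LysM-DKO is not expanded in the labels. The series title names epsins, the endocytic adaptors encoded by Epn1 and Epn2, and LysM is the usual name of a Cre driver at the lysozyme locus Lyz2, which acts in macrophages, monocytes and neutrophils and not in the cells of the vessel wall. Whole aortas were perfused, cut up and digested with collagenases and liberase for 90 min at 37 °C, passed through a 40 μm strainer and captured with a 10x Genomics 3′ kit. Age, sex and the number or pooling of animals are not given in the sources used here. Xist stood at 950 and 950 CPM in the normal-diet libraries and at 0.636 and 0.563 CPM in the western ones, while Ddx3y had 0 UMIs in both normal-diet libraries and 117 and 124 CPM in the western ones. Diet, ApoE genotype, these sex-linked transcripts and the version of Cell Ranger, the counting software, changed together, so their parts in any difference between diets cannot be told apart.

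CC chemokines are small secreted proteins that draw leukocytes along a gradient by binding G protein-coupled receptors of the CCR family. Ccl2, Ccl7 and Ccl12 are monocyte chemoattractants that act mainly through Ccr2, and Ccl8 is related to them in sequence. Ccl3, Ccl4 and Ccl5 attract T cells, monocytes and other leukocytes, Ccl6 and Ccl9 are ligands of Ccr1, and Ccl11 (eotaxin) acts through Ccr3. In atherosclerosis they are known for the recruitment of monocytes, T cells and other leukocytes into the arterial wall. Many of them are induced quickly when macrophages are stimulated, and tissue digestion can itself induce such genes.

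All 10 genes lie on mouse chromosome 11 in a pair of clusters, as placed by GENCODE M21 on GRCm38. The first, chr11:82035571-82116799, spans 81229 bases and holds Ccl2, Ccl7, Ccl11, Ccl12 and Ccl8. The second, chr11:83525778-83664683, spans 138906 bases and holds Ccl5, Ccl9, Ccl6, Ccl3 and Ccl4. Within it Ccl9 (83572919 to 83578636, minus strand) and Ccl6 (83587882 to 83593087, minus strand) are neighbours with 9245 bases between them. Ccl2 overlaps Gm17268 on the opposite strand, and Ccl6 overlaps E230016K23Rik on the opposite strand, and whether counting used strand is not given in the sources used here.

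Promoter windows of 250 bases before the start of the gene, from RefSeq on GRCm38.p6, were at hand for 5 of the 10 genes: Ccl3, Ccl6, Ccl8, Ccl9 and Ccl12. The neighbours Ccl6 and Ccl9 are shown because they were seen together in macrophages and Ccl9 in wall cells was highest in 1 library. Ccl8 and Ccl12 are shown because they parted between the genotypes although both come from the first cluster. Each is written 5′ to 3′ on the strand of the gene, with capitals for matches, on either strand, to 4 motifs: kappaB (GGG and CC with any 5 bases between), AP-1 (TGANTCA), STAT (TTC and GAA with any 3 bases between) and PU.1 (GAGGAA). Ccl6 and Ccl9 are read from the minus strand, at chr11:83593088-83593337 and chr11:83578637-83578886. Ccl8 and Ccl12 are read from the plus strand, at chr11:82114935-82115184 and chr11:82101595-82101844.
Ccl6: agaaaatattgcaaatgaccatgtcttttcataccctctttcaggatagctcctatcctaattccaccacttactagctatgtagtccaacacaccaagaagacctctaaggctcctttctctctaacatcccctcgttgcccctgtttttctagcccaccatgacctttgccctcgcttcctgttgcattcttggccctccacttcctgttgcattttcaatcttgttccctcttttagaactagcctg
Ccl9: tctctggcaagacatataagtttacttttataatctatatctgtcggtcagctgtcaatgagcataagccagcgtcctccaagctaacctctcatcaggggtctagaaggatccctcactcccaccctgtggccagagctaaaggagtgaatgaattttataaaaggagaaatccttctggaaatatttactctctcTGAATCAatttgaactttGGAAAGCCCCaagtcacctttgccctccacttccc
Ccl8: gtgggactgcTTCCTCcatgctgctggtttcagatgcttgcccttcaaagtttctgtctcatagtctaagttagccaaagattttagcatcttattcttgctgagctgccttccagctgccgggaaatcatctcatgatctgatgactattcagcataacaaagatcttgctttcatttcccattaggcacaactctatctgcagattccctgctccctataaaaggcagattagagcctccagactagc
Ccl12: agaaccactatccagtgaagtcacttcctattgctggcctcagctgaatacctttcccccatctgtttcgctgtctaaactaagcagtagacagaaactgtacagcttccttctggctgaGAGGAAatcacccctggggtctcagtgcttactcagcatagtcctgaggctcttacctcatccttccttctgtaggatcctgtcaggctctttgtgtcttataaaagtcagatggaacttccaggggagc
The Ccl9 window held a kappaB match starting at position -35 from the gene's start and an AP-1 match starting at -53, which did not overlap. The Ccl8 and Ccl12 windows each held 1 PU.1 match, starting at -240 and -130, and the Ccl6 window held none of the 4 motifs. Of 32851 windows of this length over all genes, 45.8% held the kappaB letters, 6.75% the AP-1 letters, 7.02% the STAT letters and 23.3% the PU.1 letters. A match is a description of the letters only.

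Of 11414 to 29724 barcodes per library, 7758, 8230, 13744 and 8133 held 1000 UMIs or more with no more than 10% of them mitochondrial and were kept, with median depths of 4167, 3404, 2103 and 6761 UMIs. Each took the first class it matched by UMIs of defining genes, in the order macrophage (C1qa, C1qb and C1qc), B cell, T cell, endothelial, fibroblast and smooth muscle. Macrophages numbered 92, 208, 939 and 135. Markers that the rule did not use (Csf1r, Adgre1, Cd68, Fcgr1, Mrc1, Aif1) were 56.0 to 126 times as high in macrophages as in the next class. The smooth muscle class stood apart least, at 1.27 to 1.97 times the next class, and 37.0 to 63.9% of macrophages also matched another rule, chiefly that of smooth muscle. Between 9 and 41 kept barcodes were shared by any pair of libraries, and none of them was a macrophage in both. In macrophages Epn1 stood at 81.7, 54.5, 52.4 and 42.7 CPM and Epn2 at 35.6, 33.6, 33.2 and 15.7 CPM, so neither transcript was absent from the LysM-DKO libraries. A 3′ read does not show whether a deleted exon is present, so this checks the labels only in part. Lyz2 itself was at 3696, 977, 4126 and 798 CPM, and Apoe was at 8.44 and 8.55 CPM in the western libraries against 7012 and 5435 CPM on normal diet.

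Levels are given as CPM, the UMIs of a gene divided by all UMIs of the class in that library and multiplied by 1000000, and not per length, because each captured molecule is counted once at its 3′ end. With 1 library per group no difference had a replicate check, and no test between groups was made. Intervals are 95% intervals (exact Poisson for CPM, exact binomial for shares and for the split of UMIs behind a ratio) and cover counting error only, since cells of 1 library share its animals and its preparation. Rose and fell are used of a gene whose CPM differed by at least 2 fold between a pair of libraries that together held at least 20 UMIs of it in that class. The share of all genes that passed the same rule is given beside the count.

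Macrophages of WT mice on normal diet carried the highest level of the family. The 10 genes made up 3.12, 2.12, 0.393 and 0.741% of all macrophage UMIs. After each barcode was thinned to 1000 UMIs, 57.6, 62, 14.6 and 43.7% of macrophages had at least 3 of the 10 genes, and 16.3, 12.5, 40.6 and 17.8% had none. The WT/ApoE-/- western library was thus the lowest by each of these measures, and its macrophages were also the shallowest, with a median of 2796 UMIs against 4709, 4715 and 4025 UMIs before thinning. B cells, which are not known to be a source of most of these proteins, served as a rough measure of free RNA. RNA made by B cells themselves would count in it. In WT, LysM-DKO and WT/ApoE-/-, 63.6, 69.4 and 21.3% of B barcodes also matched another rule. Mixed barcodes could therefore not be told from free RNA. In the 3 libraries with more than 50 B cells, at median depths of 2952, 3518 and 1924 UMIs, the member seen in the highest share of thinned B cells was Ccl4, at 2.59, 2.59 and 0.994%.

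**Figure D1:**
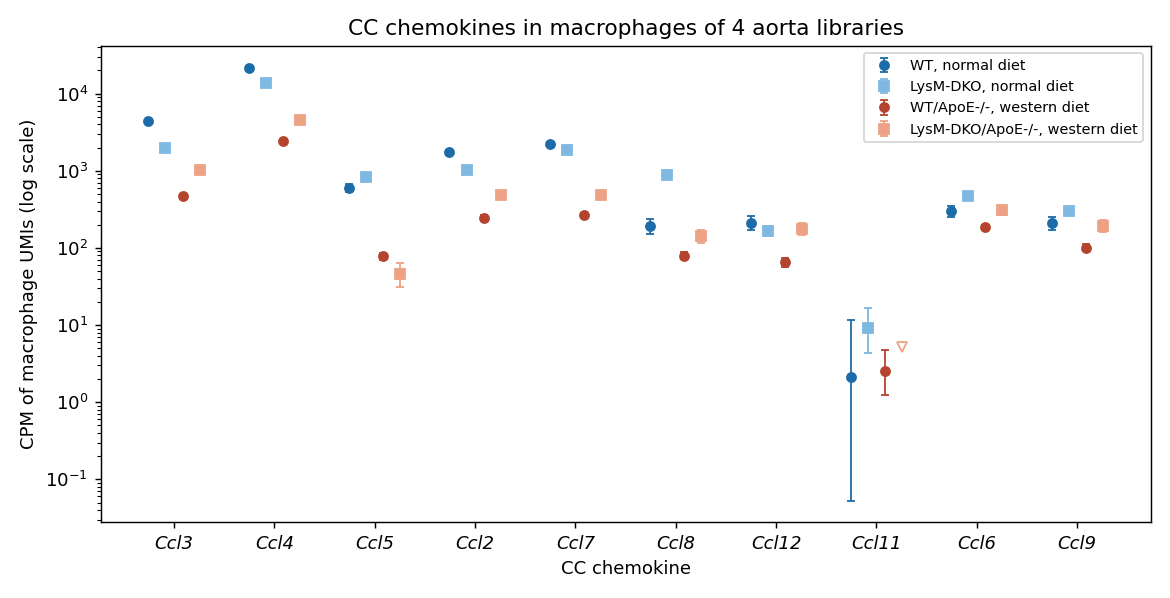
CPM of each of the 10 CC chemokines (log scale, y axis) in the macrophages of the 4 libraries, with vertical bars for exact 95% Poisson intervals of counting error and an open triangle for the upper limit at 0 UMIs. Ccl4 was the highest in all 4 libraries, from 2432 to 21376 CPM, and Ccl11 was the lowest in each.

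Ccl4 (MIP-1 beta) was the most abundant member in macrophages of every library, at 21376, 13657, 2432 and 4564 CPM. Its partner Ccl3 (MIP-1 alpha), which is also made by activated macrophages, stood at 4362, 1987, 471 and 1020 CPM. Both were highest in WT on normal diet and lowest in WT/ApoE-/- on western diet, and none of the 4 intervals of either gene overlapped another. A UMI of Ccl4 was seen in 64.1, 67.3, 40.1 and 62.2% of macrophages at equal depth, so on normal diet the genotypes differed in Ccl4 level while the share of positive cells was 64.1% (53.5 to 73.9%) and 67.3% (60.5 to 73.6%). Ccl3 was seen in 53.3, 46.2, 22.9 and 45.9%. The 10% of macrophages with the most Ccl4 held 43.4 to 77.6% of its UMIs, the most in WT/ApoE-/- on western diet, and a single WT normal-diet barcode held 1224 of the 10207. The 2 genes were seen in the same barcodes: 98.0, 96.9, 75.8 and 90.3% of macrophages with Ccl3 also had Ccl4, which is 1.44 to 1.89 times the product of their shares.

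Ccl5 (RANTES), a T cell and monocyte attractant, was at 597, 832, 78.0 and 45.6 CPM in macrophages and in 16.3, 20.2, 3.94 and 2.96% of them at equal depth. The normal-diet levels lay above the western ones in both genotypes, and the order of the genotypes was opposite on the 2 diets. Few cells carried the gene: the 10% of macrophages with the most held 84.9, 80.7, 100 and 100% of its UMIs. LysM-DKO/ApoE-/- had only 32 Ccl5 UMIs. Over the 10 processing alternatives listed at the end, the LysM-DKO over WT log2 ratio changed sign in 1 on each diet. It ran from -0.23 to 0.83 on normal diet and from -0.82 to 0.13 on western diet.

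Among the monocyte chemoattractants, Ccl2 (MCP-1) was at 1728, 1016, 247 and 482 CPM in macrophages. Ccl7 (MCP-3) was at 2201, 1860, 271 and 483 CPM. The 2 genes had the same order over the libraries and were seen together in macrophages 1.51, 1.60, 3.54 and 1.77 times as often as the product of their shares. Ccl12 (MCP-5), a ligand of Ccr2 found in mice and not in humans, was at 212, 164, 65.2 and 177 CPM, and macrophages held 86.4 to 96.1% of its UMIs, the highest such share of the 10 genes in 3 libraries, while Ccl4 with 96.8% was highest in LysM-DKO/ApoE-/-. Its intervals in WT and LysM-DKO on normal diet and in LysM-DKO/ApoE-/- overlapped, and only WT/ApoE-/- lay apart. Ccl8 (MCP-2) was at 191, 886, 79.8 and 142 CPM and in 7.61, 27.9, 3.73 and 9.63% of macrophages at equal depth. The LysM-DKO normal-diet library stood above the other 3 for Ccl8. This gene was held by few cells: the 10% of macrophages with the most held 87.9, 74.7, 100 and 97% of its UMIs, and 1 barcode held 70 of the 100 in LysM-DKO/ApoE-/-.

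The Ccr1 ligands Ccl6 and Ccl9 varied less over the libraries than the other 7 measured members. Ccl6 was at 299, 468, 184 and 308 CPM in macrophages, and Ccl9 at 209, 302, 101 and 192 CPM. Both had the LysM-DKO library above the WT library on each diet, and both were seen together in macrophages 3.77, 1.59, 3.54 and 2.08 times as often as the product of their shares. Ccl9 and Ccl4 were seen together at most 1.11 times as often as that product. Ccl11, an eosinophil attractant, had 1, 10, 10 and 0 UMIs in macrophages, and the 0 of 135 barcodes allows up to 2.22% of barcodes with a UMI, which does not limit the share of cells that express it.

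**Figure D2:**
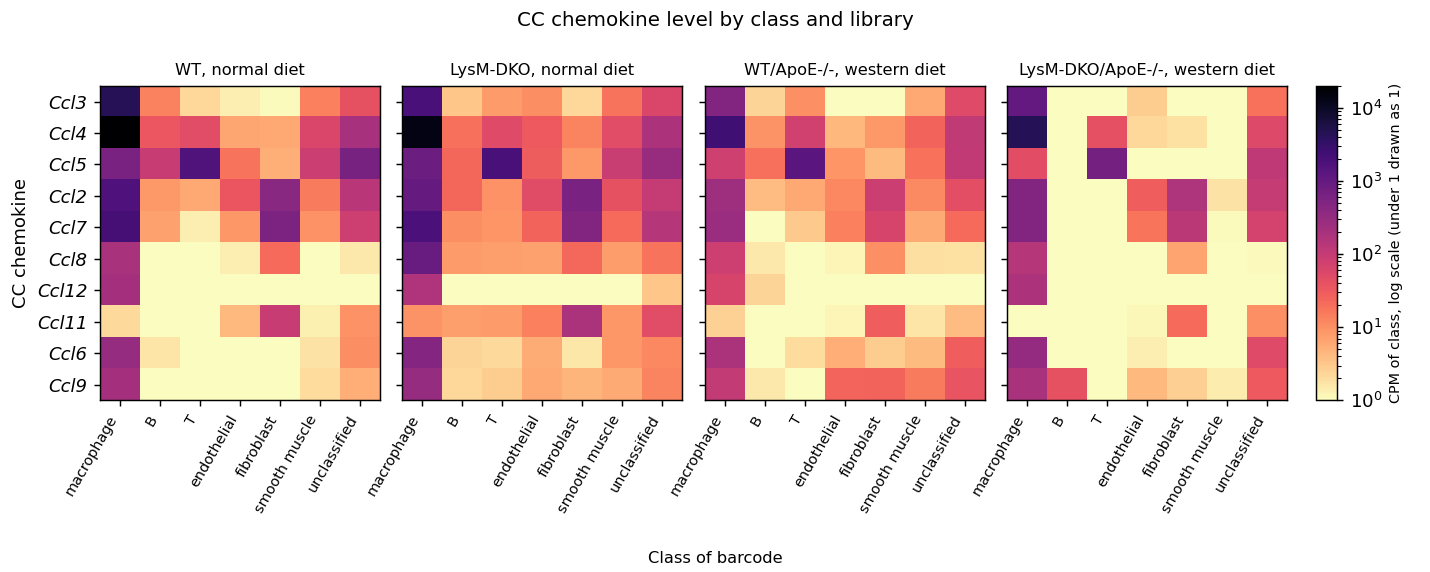
CPM of each CC chemokine (rows) in each cell class (columns) of the 4 libraries (panels), as colour on a log scale with values under 1 CPM drawn as 1. Ccl4 and Ccl3 are darkest in macrophages, Ccl5 in T cells and Ccl11 in fibroblasts. The B and T columns of LysM-DKO/ApoE-/- on western diet rest on 14 and 33 barcodes.

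On normal diet, LysM-DKO macrophages had more Ccl8 and less Ccl3 than WT macrophages. Ccl8 rose 4.62 fold (log2 2.21, 1.91 to 2.54), from 191 to 886 CPM. Ccl3 fell by 1.13 on the log2 scale (-1.22 to -1.05), from 4362 to 1987 CPM. Of the 9 members with enough UMIs, 1 rose and 1 fell, beside 6.55% of all 7068 genes that rose and 2.39% that fell. The rest stayed within 2 fold: Ccl2 at -0.77, Ccl4 at -0.65, Ccl12 at -0.37, Ccl7 at -0.24, Ccl5 at 0.48, Ccl9 at 0.52 and Ccl6 at 0.64 on the log2 scale. The median of the members was -0.24 against 0.05 over all genes. Ccl3 did not pass 2 fold when barcodes were weighted equally by thinning, or when the 10% of macrophages richest in the family was left out, and its log2 ratio was -0.78 at the least. In the same library Ccl8 was also seen outside macrophages, with 43 UMIs in B cells and 21 in T cells against 2 and 3 in WT, and the part of free RNA in the Ccl8 difference was not tested. The B cell level was 7.89 CPM against 886 CPM in macrophages.

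On western diet, 8 of the 9 measured members were higher in LysM-DKO/ApoE-/- than in WT/ApoE-/- macrophages, and 2 of them passed 2 fold. Ccl12 rose 2.72 fold (log2 1.44, 1.12 to 1.75), from 65.2 to 177 CPM. Ccl3 rose 2.16 fold (log2 1.11, 0.99 to 1.24), from 471 to 1020 CPM. Of all 10418 genes 4.1% rose and 9.1% fell by the 2 fold rule in this comparison, and the share of all genes above 0 was not counted. Ccl2 at 0.96, Ccl9 at 0.93, Ccl4 at 0.91, Ccl8 and Ccl7 at 0.84 and Ccl6 at 0.74 lay under 2 fold, and Ccl5 was the one below 0, at -0.75 (-1.35 to -0.25). The members' median was 0.91 and that of all genes -0.05. With barcodes thinned to equal depth, or without the 10% of macrophages richest in the family, 6 members passed 2 fold (Ccl2, Ccl3, Ccl4, Ccl7, Ccl8 and Ccl12). Ccl8 turned to -1.06 when barcodes that matched more than 1 class were left out, and to -0.87 (-1.48 to -0.35) without the 1 LysM-DKO/ApoE-/- barcode that held 70 of its 100 UMIs, so 7 of the 9 members were higher without it. The same step on normal diet left Ccl8 at 2.03 (1.73 to 2.37). With the top Ccl8 barcode of each library left out, the ratio was -0.47 (-1.09 to 0.06) on western diet. On normal diet it was then 2.43 (2.08 to 2.81).

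**Figure D3:**
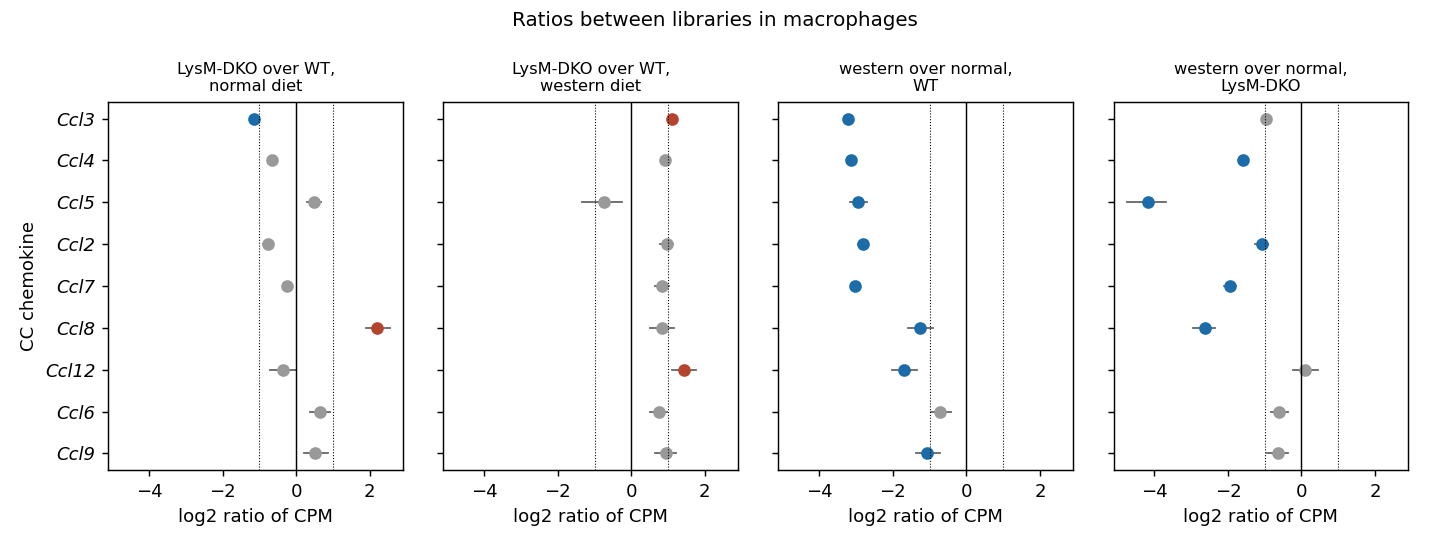
Log2 ratios of CPM (x axis) of 9 CC chemokines in macrophages for 4 comparisons between libraries (panels), with horizontal bars for exact 95% intervals of counting error and dotted lines at 2 fold. Red points rose, blue points fell and grey points stayed within 2 fold. Ccl3 is at -1.13 for LysM-DKO over WT on normal diet and at 1.11 on western diet.

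Between the diets, 8 of 9 members fell in WT macrophages, where 8.71% of all 10342 genes fell and 21% rose. Ccl3 fell by 3.21, Ccl4 by 3.14, Ccl7 by 3.02, Ccl5 by 2.94 and Ccl2 by 2.80 on the log2 scale, which is 6.98 to 9.25 fold. Ccl12, Ccl8 and Ccl9 fell by 1.70, 1.26 and 1.06, and Ccl6 was at -0.70 (-0.96 to -0.43). The median of all genes was 0.25, so the reference itself lay above 0. In LysM-DKO macrophages 5 of 9 fell, beside 6.46% of 7668 genes that fell and 7.11% that rose: Ccl5 by 4.17, Ccl8 by 2.63, Ccl7 by 1.94, Ccl4 by 1.58 and Ccl2 by 1.07. Ccl3 at -0.96, Ccl9 at -0.65, Ccl6 at -0.60 and Ccl12 at 0.11 did not pass. Over the 10 alternatives Ccl9 in WT ran from -1.32 to -0.48 and passed 2 fold in 6, Ccl8 in WT ran from -2.67 to -0.62 and passed in 8, and Ccl2 in LysM-DKO ran from -1.14 to -0.62 and passed in 9. The genotype and diet comparisons share libraries, so these sets of values are not independent of each other. Besides the confounded factors named above, genes known to respond to tissue dissociation also differed: 11 of them summed to 12277, 9035, 5842 and 7700 CPM in macrophages, and 5 of the 11 (Jun, Egr1, Atf3, Hspa1a, Hspa1b) fell between the diets in WT, where their median was -0.88. In LysM-DKO 2 of the 11 (Hspa1a, Hspa1b) fell and the median was -0.14, against -1.07 for the chemokines. Their part in the chemokine differences was not tested.

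Other genes of the pathway gave a mixed picture in macrophages. Of 14 receptors and scavengers, 5 or 6 had enough UMIs in each comparison. Ccr1, which binds Ccl3, Ccl5, Ccl6 and Ccl9, was at 0.46 for LysM-DKO over WT on normal diet and rose by 1.39 on western diet. Ccr2, the receptor of Ccl2, was seen at 16.8 to 34.2 CPM and stayed within 2 fold in each of the 4 comparisons. The other CC ligands were mostly too rare to measure. Of their 10, Ccl24 (eotaxin-2) fell by 1.45 with LysM-DKO on normal diet and rose by 3.78 on western diet, where it was 60 UMIs against 24. Among 10 inducible inflammatory genes on normal diet, Tnf fell by 1.09 with LysM-DKO, 1 of the 10 was above 0, and the median was -0.66. On western diet Cxcl1 and Cxcl2, which attract neutrophils, rose by 1.02 and 1.09, and all 10 were above 0, with a median of 0.74. The 10 summed to 48061, 31623, 10152 and 18766 CPM, the same order over the libraries as Ccl2, Ccl3, Ccl4 and Ccl7. The dissociation-responsive list stood in this order too, with 0 of 11 past 2 fold between the genotypes on either diet. For LysM-DKO over WT, 0 of the 11 were above 0 on normal diet (median -0.49) and 9 on western diet (median 0.31). Of all 7068 macrophage genes measured on normal diet, 6.55% rose and 2.39% fell with LysM-DKO, and their median was 0.05. Of 10418 on western diet, 4.1% rose and 9.1% fell, and the median was -0.05. The share of all genes above 0 was not counted on either diet. The part of dissociation in the genotype differences was not tested.

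Macrophages were split by genes of resident, vessel-associated macrophages (Lyve1 and Folr2) and of lipid-laden macrophages (Trem2 and Gpnmb), with at least 2 UMIs summed over the pair of genes. Barcodes of the first kind numbered 34, 64, 21 and 39, those of the second 9, 16, 402 and 45, those with both 4, 10, 66 and 8, and those with neither 45, 118, 450 and 43. The WT/ApoE-/- western library thus had 42.8% of its macrophages in the Trem2 or Gpnmb group and 2.24% in the Lyve1 or Folr2 group. Several members differed between the groups within this library. Ccl7 was at 1231 CPM in the Lyve1 or Folr2 group and at 142 CPM in the Trem2 or Gpnmb group (log2 3.12, 2.75 to 3.46), and Ccl2 at 1149 and 182 CPM (log2 2.67). Ccl12 (2.87), Ccl6 (1.84), Ccl9 (1.54) and Ccl4 (1.53) leaned the same way. Ccl3 was at -0.28 (-0.90 to 0.24) and Ccl8 at 0.80 (-0.44 to 1.69). Ccl5 had 0 UMIs in the 21 barcodes of the Lyve1 or Folr2 group, with an upper limit of 50.5 CPM. In the 402 barcodes of the Trem2 or Gpnmb group it had 99 UMIs, at 51.6 CPM, so the 2 levels were hardly told apart. In LysM-DKO/ApoE-/- the Lyve1 or Folr2 group was again the higher for these genes, with Ccl7 at 3.70, Ccl9 at 3.72, Ccl12 at 3.26, Ccl6 at 2.63, Ccl2 at 2.32, Ccl4 at 0.91, while Ccl3 was at 0.05 (-0.35 to 0.41). Ccl8 was at 6.85 there, from 97 UMIs against 2. On normal diet the Trem2 or Gpnmb group of WT held only 9 barcodes, in which Ccl3 stood at 11103 CPM and Ccl4 at 43675 CPM.

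**Figure D4:**
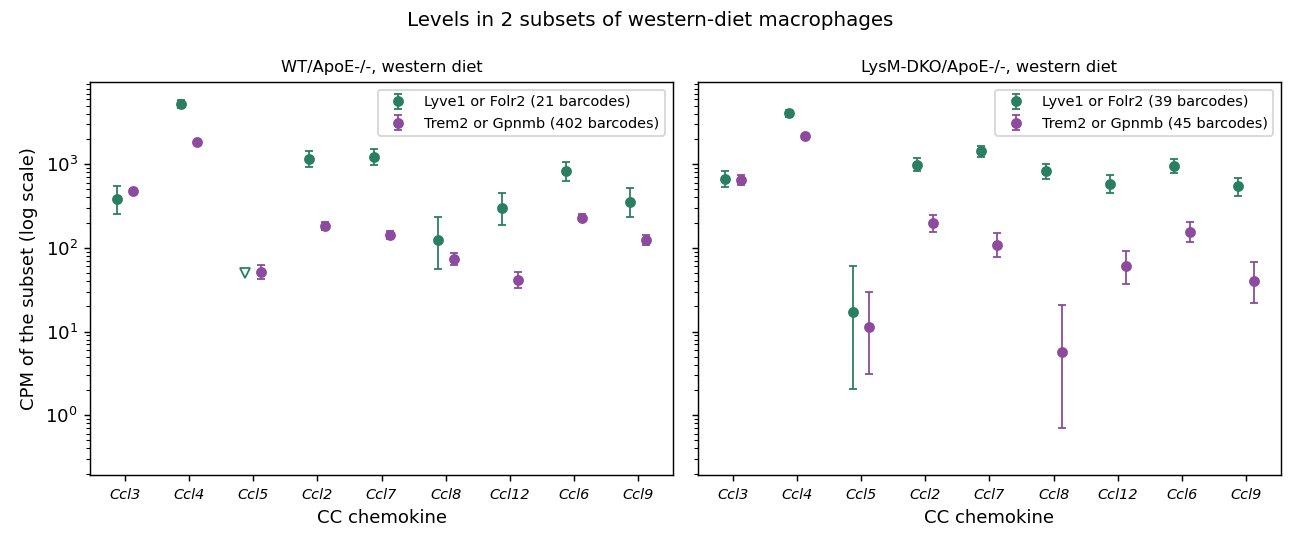
CPM (log scale, y axis) of 9 CC chemokines in macrophages with at least 2 UMIs of Lyve1 and Folr2 and in those with at least 2 of Trem2 and Gpnmb, in the western-diet libraries (panels), with bars for exact 95% Poisson intervals and an open triangle for the upper limit at 0 UMIs. Ccl2, Ccl6, Ccl7, Ccl9 and Ccl12 are higher in the Lyve1 or Folr2 group in both panels, and the Ccl3 intervals overlap.

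The genotype ratios within these groups differed from the pooled ones. Ccl4 on western diet was at 0.91 in all macrophages, at -0.38 in the Lyve1 or Folr2 group, at 0.24 in the Trem2 or Gpnmb group and at 1.43 in the macrophages with neither. Ccl3 on normal diet was at 0.24 (0.01 to 0.47) in the Lyve1 or Folr2 group and at -1.02 (-1.14 to -0.89) in those with neither, and on western diet at 0.79, 0.46 and 1.83 in the 3 groups. For Ccl8 the Lyve1 or Folr2 group gave 2.20 (1.82 to 2.61) under normal diet. Under western diet it gave 2.67 (1.75 to 3.91), from 97 UMIs against 9, but 1 LysM-DKO/ApoE-/- barcode held 70 of the 97. Without that barcode the Ccl8 ratio in this group was 0.89 (-0.19 to 2.22), from 27 UMIs against 9. The other groups went the other way on western diet. Ccl8 was at -3.39 (-6.76 to -1.82) in the Trem2 or Gpnmb group, from 2 UMIs against 143. Of the 143, 1 WT/ApoE-/- barcode held 76. Without that barcode the ratio in this group was -2.30 (-5.69 to -0.71), from 2 UMIs against 67. In the macrophages with neither kind of marker Ccl8 had 0 UMIs in LysM-DKO/ApoE-/- against 124 in WT/ApoE-/-, and the upper end of the interval of the ratio was -2.14. The group sizes differed between the genotypes on western diet, and their part in the pooled ratios was not tested beyond these values.

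Fibroblasts carried Ccl2, Ccl7 and Ccl11, and at most 1 UMI of Ccl12 in any library. Ccl2 was at 418, 578, 85.2 and 167 CPM there, and fibroblasts held 40.6, 46.3, 16.9 and 47.5% of the library's Ccl2 UMIs. In WT/ApoE-/- the far larger smooth muscle class held 381 Ccl2 UMIs against 333 in fibroblasts. Ccl7 was at 564, 488, 65.2 and 126 CPM, from 1605, 1787, 255 and 418 UMIs against 1051, 2047, 1059 and 339 UMIs in macrophages. Ccl2 and Ccl7 both lay below the macrophage CPM in each library and were seen together 3.10 to 9.57 times as often as the product of their shares. Ccl11 was at 94.9, 185, 28.6 and 21.4 CPM, and fibroblasts held 77.1, 62.5, 53.6 and 74.0% of its UMIs. Ccl8 was low, at 21.4, 22.4, 9.98 and 6.62 CPM. Leaving out fibroblast barcodes with a UMI of the leukocyte gene Ptprc or of C1q left Ccl2 at 424, 596, 85.8 and 159 CPM and Ccl11 at 92.1, 189, 29.1 and 22.0 CPM.

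In fibroblasts the genotypes differed by less than 2 fold in Ccl2, Ccl7, Ccl8 and Ccl11. On normal diet Ccl2 was at 0.47, Ccl7 at -0.21, Ccl8 at 0.06 and Ccl11 at 0.96 (0.76 to 1.17) on the log2 scale, LysM-DKO over WT. Of 6 members measured, Ccl4 rose, with 46 against 17 UMIs, beside 2.71% of 11521 genes that rose and 1.57% that fell. On western diet Ccl2 was at 0.97 and Ccl7 at 0.95, and Ccl9 and Ccl4 fell by 3.12 and 2.09, beside 3.7% of 11670 genes that fell and 3.11% that rose. Between the diets the falls were larger. In WT, Ccl7 fell by 3.11, Ccl2 by 2.29, Ccl11 by 1.72 and Ccl8 by 1.10, so 4 of 7 fell, beside 7.72% of 11653 genes that fell and 9.59% that rose. Ccl9 rose, as described with the wall cells. In LysM-DKO, 6 of 7 fell, beside 5.63% of 11713 genes that fell and 5.93% that rose, with Ccl11 by 3.11, Ccl7 by 1.95, Ccl2 by 1.79 and Ccl8 by 1.73. Of the 11 dissociation-responsive genes, 6 fell in WT fibroblasts and 1 in LysM-DKO fibroblasts between the diets, and their part was not tested.

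Fibroblasts with Pi16 or Dpp4, markers of adventitial progenitor-like fibroblasts, carried more Ccl7 and Ccl2 than the rest on western diet. Ccl7 was at 119 CPM in them and 56.0 CPM in the rest of WT/ApoE-/-, and at 255 and 88.2 CPM in LysM-DKO/ApoE-/-. Ccl2 was at 174 and 70.1 CPM in WT/ApoE-/- and at 286 and 132 CPM in LysM-DKO/ApoE-/-. On normal diet Ccl7 was at 773 and 452 CPM in WT and at 599 and 425 CPM in LysM-DKO, while Ccl2 in WT was at 399.6 and 427 CPM with overlapping intervals. Ccl11 was at 102 and 91.3 CPM in WT on normal diet, again with overlapping intervals, and at 49.5 and 13.2 CPM in LysM-DKO/ApoE-/-.

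Ccl5 was the T cell member of the family. It was at 1647, 1962, 1319 and 687 CPM in T cells, where 28.9, 24.5, 29.2 and 24.2% of barcodes had a UMI, and T cells held 58.1, 61.6, 45.3 and 34.2% of its UMIs. B cells had a Ccl5 UMI in 3.49, 4.19 and 0.795% of barcodes in the 3 libraries with more than 50 B cells. The last library held only 33 T cells, 8 of them with Ccl5, and was left out of comparisons of this class. Ccl5 in T cells was at 0.25 (0.20 to 0.31) for LysM-DKO over WT on normal diet and at -0.32 (-0.41 to -0.23) between the diets in WT, both within 2 fold. Between the diets in WT T cells 0 of 3 measured members passed 2 fold, beside 11.4% of 10198 genes that rose and 5.15% that fell. In macrophages the same gene fell by 2.94 between the diets in WT. Other members in T cells were rare: on normal diet Ccl3, Ccl7, Ccl8 and Ccl11 rose with LysM-DKO, 4 of 7 beside 5.15% of 11043 genes that rose and 1.54% that fell, but Ccl7 rested on 25 against 5 UMIs, Ccl8 on 21 against 3 and Ccl11 on 22 against 0. Outside the 6 classes, 115 WT normal-diet barcodes with dendritic cell markers had Ccl5 at 1419 CPM, in 17.4% of them, while 40 such barcodes of LysM-DKO on normal diet had it at 188 CPM and 54 of WT/ApoE-/- at 25.8 CPM. Barcodes with NK cell markers numbered 2 to 14 per library and had Ccl5 at 492 to 19679 CPM.

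Ccl9 in wall cells was highest in 1 library. The smooth muscle class held 47, 98, 528 and 69 of its UMIs. In WT/ApoE-/- on western diet, macrophages held 30.0% of its UMIs and the smooth muscle class of 8836 barcodes 40.1%, whereas macrophages held 58.8, 62.8 and 52.1% in the other 3 libraries. The Ccl9 level was still highest in macrophages there, at 101 CPM against 24.8 CPM in fibroblasts and 15.4 CPM in smooth muscle. To set aside leukocyte RNA, barcodes with a Ptprc or C1q UMI were left out of the wall classes. Ccl9 was then at 1.15, 2.24, 13.7 and 1.25 CPM in smooth muscle, where WT/ApoE-/- had 401 UMIs in 282 of 7190 barcodes. In fibroblasts it was at 0, 2.72, 26.5 and 2.79 CPM. In the endothelial class it was at 0.640, 3.86, 20.6 and 3.76 CPM. In all 3 classes WT/ApoE-/- stood above the other libraries, and its intervals overlapped none of theirs. LysM-DKO/ApoE-/- over WT/ApoE-/- was at -3.45 (-3.88 to -3.06) in smooth muscle, at -3.18 in fibroblasts and at -2.41 in the endothelial class on the log2 scale.

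The ratio of Ccl9 to Ccl4 was not that of macrophages in the wall classes. In WT/ApoE-/- there were 0.0415 Ccl9 UMIs per Ccl4 UMI in macrophages, 0.599 in smooth muscle, 3.03 in fibroblasts and 5.53 in the endothelial class, and 2 Ccl9 UMIs were found in 503 B cells. In LysM-DKO/ApoE-/- the ratio was 0.0421 in macrophages, 1.82 in smooth muscle, 1.5 in fibroblasts and 1.88 in the endothelial class, on 6 to 38 Ccl4 UMIs in the wall classes, so a ratio unlike that of macrophages was not particular to WT/ApoE-/-. Lum and Vcam1 are genes of modulated or matrix-producing wall cells. The smooth muscle barcodes of WT/ApoE-/- with no Ptprc or C1q UMI were split by them. The 3719 with at least 2 UMIs of Lum and Vcam1 had Ccl9 at 25.6 CPM and in 6.61% of barcodes. The 3471 with under 2 UMIs had 2.47 CPM and 1.04%, although they were deeper, with a median of 3981 against 2018 UMIs. In the other libraries the corresponding levels were 1.53 and 1.10, 7.73 and 1.10, and 5.95 and 0.666 CPM. Across all fibroblasts, Ccl9 went from 0 UMIs in WT on normal diet to 97 in WT/ApoE-/- on western diet. The latter level was 23.5 times the 1.05 CPM that 3 UMIs would give in WT on normal diet, without the counting error of the 97. The smooth muscle rule separated its class weakly, so these are barcodes with Myh11 and Cnn1 UMIs rather than a defined cell type.

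**Figure D5:**
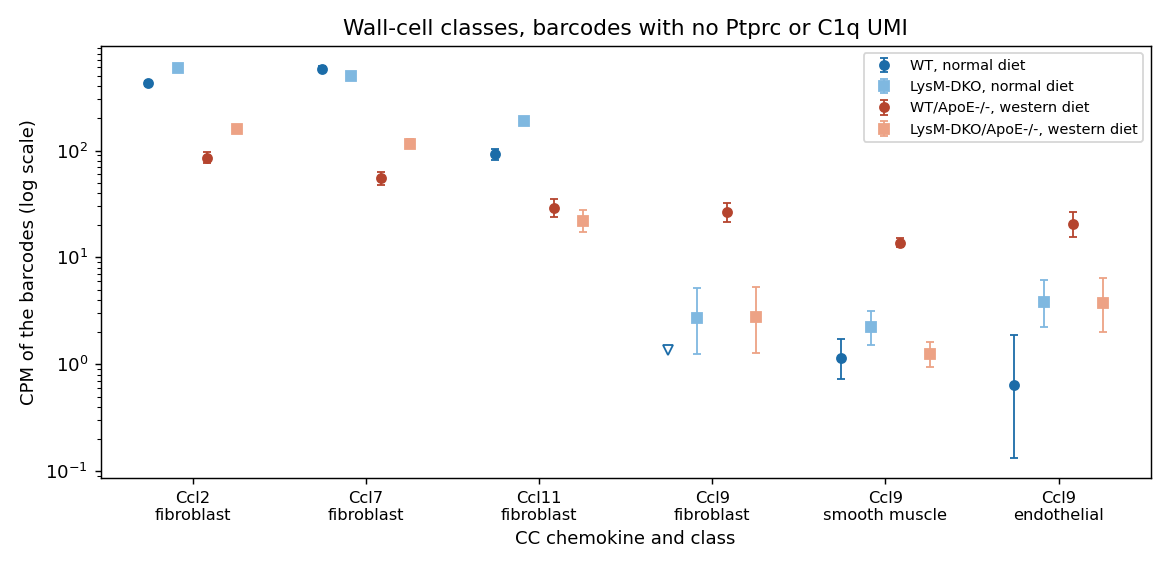
CPM (log scale, y axis) of Ccl2, Ccl7 and Ccl11 in fibroblasts and of Ccl9 in fibroblasts, smooth muscle and the endothelial class of the 4 libraries, from barcodes with no Ptprc or C1q UMI, with bars for exact 95% Poisson intervals and an open triangle for the upper limit at 0 UMIs. Ccl9 is highest in WT/ApoE-/- on western diet in each class, at 13.7 CPM in smooth muscle, and Ccl2, Ccl7 and Ccl11 in fibroblasts are higher on normal diet.

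The other members in the smooth muscle class were low, and much of the Ccl3, Ccl4 and Ccl5 signal sat in barcodes that also held leukocyte RNA. In WT on normal diet, 85.5% of the Ccl4 UMIs of the smooth muscle class lay in the 11.8% of its barcodes with a Ptprc or C1q UMI, at 514 CPM against 9.54 CPM in the rest. For Ccl3 this share was 88.1%, but for Ccl2, Ccl7 and Ccl11 it was 13.9, 32.9 and 3.23%, so most of their UMIs lay in barcodes without such RNA. Few of these barcodes carried Ccl2 and Ccl7. Among 318 with Lum or Vcam1, 14 held 253 Ccl2 UMIs and 10 held 109 Ccl7 UMIs. The 2938 with under 2 UMIs of Lum and Vcam1 had Ccl2 at 2.74 CPM and Ccl7 at 2.08 CPM. In LysM-DKO/ApoE-/- only 1.84% of smooth muscle barcodes had a Ptprc or C1q UMI. The whole family stood at 7.42 CPM in that class, against 190, 248 and 90.8 CPM in the other libraries. All 10 members fell with LysM-DKO in this class on western diet, beside 9.52% of 15552 genes that fell and 1.92% that rose. Without the leukocyte-bearing barcodes the log2 ratios of Ccl2, Ccl4 and Ccl5 were -2.13, -3.58 and -5.06. The number of macrophages per library differed as well (939 against 135), and the part of free RNA in these falls was not tested. On normal diet 6 of 9 members rose with LysM-DKO in this class, beside 6.48% of 15286 genes that rose and 0.975% that fell, with Ccl8 at 4.09 (132 against 10 UMIs) and Ccl11 at 2.67 (148 against 31 UMIs) the highest. Between the diets in WT, Ccl6, Ccl8, Ccl9 and Ccl12 rose and Ccl3, Ccl4 and Ccl5 fell in this class, beside 5.43% of 15486 genes that rose and 9.25% that fell. In LysM-DKO 9 of 9 measured members fell, beside 17% of 15633 genes that fell and 2.72% that rose.

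In the endothelial class, 7 of 9 measured members rose with LysM-DKO on normal diet, beside 3.51% of 12813 genes that rose and 1.05% that fell. Among them Ccl4 had 160 against 32 UMIs (log2 2.30) and Ccl7 had 130 against 44 (1.55), while Ccl2 and Ccl5 were at 0.43 and 0.69. Without barcodes that held a Ptprc or C1q UMI, Ccl4 had 60 against 32 UMIs and lay under 2 fold, at 0.985 (0.35 to 1.66). Ccl3 and Ccl6 then had too few UMIs to measure. Ccl7, Ccl8, Ccl9 and Ccl11 stayed past 2 fold, at 1.66, 1.96, 2.41 and 1.56. On western diet Ccl2 rose by 1.23 with 99 against 40 UMIs, and Ccl5, Ccl6 and Ccl9 fell, beside 3.03% of 11672 genes that rose and 3.68% that fell. Between the diets in WT, Ccl9 rose by 4.80 with 83 against 4 UMIs, and Ccl2, Ccl5 and Ccl11 fell, beside 5.91% of 12274 genes that rose and 8.55% that fell. In LysM-DKO 6 of 9 fell (Ccl3, Ccl4, Ccl5, Ccl6, Ccl8 and Ccl11), beside 8.75% of 12417 genes that fell and 3.45% that rose. Most endothelial barcodes also matched the rule of another class, and Ccl7 on normal diet turned to -0.88 when such barcodes were left out.

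Genes with the most similar pattern were sought over 22 sums of a class in a library, among 5930 other genes, by Pearson's r of log2(CPM + 10). The sums come from 4 libraries and differ mostly by cell class, so r describes shared cell types. With 1 in place of 10 added to the CPM, 7 of the 10 members had another closest gene, and Cxcl1 replaced Abca9 for Ccl2 and Ccl7. Ccl12 lay closest to Mrc1, Il1a and Fcrls (r = 0.997 each), and Ccl6 to Csf1r, Adap2 and Nlrp3 (0.995 for Csf1r). Ccl3 and Ccl4 both had Tnf among their 3 closest genes, at 0.989 and 0.986. Ccl2 and Ccl7 both had Abca9 and Emilin2, with r of 0.969 and 0.968 for Abca9. Ccl9 lay closest to Cd14 (0.969), Ccl8 to Lst1 (0.969), Ccl11 to Ebf2 (0.972) and Ccl5 to C9orf72 (0.924). Among the members the highest r were those of Ccl2 with Ccl7 (0.988), Ccl3 with Ccl4 (0.986) and Ccl6 with Ccl12 (0.986).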

How the data were processed

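The deposited matrices hold raw UMI counts, whole numbers per gene and barcode, made by the authors with Cell Ranger (6.0.1 for the normal-diet and 6.1.2 for the western libraries, per the file headers). The submitters' processing notes name mm10, Cell Ranger 6.1.2 and Seurat 4.1.0. Barcodes, classes, CPM, intervals and ratios were computed with Python 3.11.15, NumPy 2.4.6, SciPy 1.17.1 and pandas 2.3.3, with 0.5 UMIs added to each count for a ratio, and the code was tested on simulated data. A macrophage needed 5 C1q UMIs, a fibroblast 3 UMIs of Pdgfra and Serpinf1, a smooth muscle barcode 3 of Myh11 and Cnn1, and the B (Cd79a, Ms4a1), T (Cd3d, Cd3e, Trac) and endothelial (Pecam1, Cdh5) classes 2. No doublet caller was run, and 1 alternative left out barcodes that matched several rules. Macrophage and fibroblast subsets and the Lum or Vcam1 split needed 2 UMIs. All 10 members are named, pathway genes only with at least 20 UMIs, and the 3 genes of highest r per member. Members and lists were chosen with earlier results of these data known, and the splits by Ptprc or C1q, Pi16 or Dpp4 and Lum or Vcam1 after their values were seen. Of the 32285 gene IDs, 32235 matched GENCODE M21. The values of 1 receptor are not reported here.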

Additional observations from a re-analysis of the deposited data

Results flagged for a closer look

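Several members had ratios past 2 fold in opposite directions on the 2 diets or in the 2 genotypes. With 1 library per group the difference between such ratios was not tested. In macrophages, Ccl3 for LysM-DKO over WT was at -1.13 on normal diet and at 1.11 on western diet, in log2 as throughout. In the endothelial class the same pair of values was 4.29 and -1.82 for Ccl6, on 29 against 1 and 5 against 18 UMIs, and 2.80 and -2.50 for Ccl9. In fibroblasts Ccl4 was at 1.04 and -2.09.

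In the smooth muscle class 6 members turned in this way with LysM-DKO, of 9 measured on normal diet and 10 on western diet. Of all genes of this class, 6.48% rose and 0.975% fell with LysM-DKO on normal diet. On western diet 1.92% rose and 9.52% fell. The share of all genes that turned was not counted in any class. The LysM-DKO over WT ratios on normal and on western diet were 1.42 and -2.65 for Ccl2, 2.31 and -2.42 for Ccl6, and 1.22 and -2.46 for Ccl7. They were 4.09 and -3.02 for Ccl8, 1.48 and -3.41 for Ccl9, and 2.67 and -2.74 for Ccl11. Western over normal diet was at 1.21 in WT and -3.52 in LysM-DKO for Ccl6, at 2.09 and -5.02 for Ccl8, and at 2.90 and -1.99 for Ccl9. Barcodes of this class with a Ptprc or C1q UMI made up 11.8, 18.2, 18.6 and 1.84% in the 4 libraries, and their part in these values was not tested beyond the levels given without them.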

How the results depend on the processing

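No paired analysis was possible because each group is 1 library. Each macrophage ratio past 2 fold kept its direction under the 10 alternatives (other UMI or mitochondrial limits, barcodes of several classes left out, class markers per 1000 UMIs, thinning, median-ratio scaling, other UMI minimums, and the 10% of macrophages richest in the family left out). In macrophages 277 alternative values moved by less than their counting error and 83 by more. The count of members higher with LysM-DKO on normal diet went from 1 to 2 without barcodes of several classes (Ccl6, Ccl8), to 3 with thinning (Ccl6, Ccl8, Ccl9) and to 2 with a minimum of 1 UMI (Ccl8, Ccl11). The count lower went from 1 to 0 with thinning, and without the richest 10% the 1 lower member was Ccl2 in place of Ccl3. On western diet the count higher went from 2 to 6 with thinning and to 6 without the richest 10%, and to 3 with median-ratio scaling (Ccl2, Ccl3, Ccl12), and the count lower from 0 to 1 without barcodes of several classes (Ccl8) and with a minimum of 1 UMI (Ccl11). Scaling by the median ratio shifted the macrophage comparison of the diets in WT by 0.26 (log2) and no other by more than 0.17. In other classes 822 alternative values moved by less than their counting error and 148 by more. A further 5 changed sign from a main ratio past 2 fold. Sign changes of ratios within 2 fold were not counted there. Ccl5 in B cells between the diets in WT went to 0.94 with markers per 1000 UMIs. Ccl7 in the endothelial class with LysM-DKO on normal diet went to -0.88 without barcodes of several classes. Ccl5 there between the diets in WT went to 0.31 at up to 20% mitochondrial UMIs and to 0.33 without Ptprc or C1q barcodes. Ccl3 in smooth muscle between the diets in WT went to 0.24 without Ptprc or C1q barcodes. Leaving out the LysM-DKO/ApoE-/- barcode with the most Ccl8, chosen after seeing the data, turned the western-diet Ccl8 ratio of macrophages to -0.87. Leaving out the top Ccl8 barcode of each library gave -0.47 (-1.09 to 0.06). The cause was not tested. At these depths a member with 0 UMIs in the 135 macrophages of LysM-DKO/ApoE-/- could stand at up to 4.27 CPM, and B and T cells of that library were too few to compare.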
